A study of Homo sapiens with 25 samples.

Results

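The genes of glycolysis and of the hypoxia response were followed as a named set of 40 genes in breast cancer cells given erlotinib, an inhibitor of the epidermal growth factor receptor (EGFR) kinase. The 40 genes are 4 glucose and lactate transporters, 17 glycolytic enzymes, 3 PFKFB regulators, 5 components of the hypoxia-inducible factor (HIF) pathway and 11 other HIF targets. Each gene was represented by 1 Affymetrix probe set, the one with the highest mean over the 25 arrays among those annotated to that gene alone. Of the 40 genes, 37 had such a probe set and 36 were tested, out of 19775 genes with a probe set and 12643 genes tested. SLC16A1, SLC16A3 and CA9 were not analysed here. LDHB, a lactate dehydrogenase subunit, stayed between 1.83 and 3.52 log2 units on all 25 arrays, below the level of 4 used to admit a gene, and was not tested.

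In glycolysis, glucose enters the cell through transporters, is trapped by hexokinases and is broken down by a chain of enzymes to pyruvate, which lactate dehydrogenase turns to lactate. Many of these genes carry binding sites for HIF, a transcription factor made of an oxygen-sensitive alpha subunit (HIF1A or EPAS1) and a stable partner. In oxygen the EGLN enzymes hydroxylate the alpha subunit and the VHL protein marks it for destruction. In low oxygen, or under growth factor signalling through PI3K and mTOR, the subunit builds up and HIF raises transporters, glycolytic enzymes and genes of blood vessel growth, mitophagy and matrix synthesis. EGFR signalling is known to feed glucose uptake in tumour cells.

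Total RNA was taken from BT20 cells, a breast cancer line with high EGFR, 30 min, 6 h and 24 h (3 arrays each) after 10 µM erlotinib, and at 0 min (4 arrays). MDA-MB-453, a luminal line, and a line labelled MCF were each read 24 h after the same dose (3 arrays) and at 0 min (3 arrays). Cells had adhered in serum-containing medium before the drug was added. All groups share that medium and the label of 10 µM erlotinib, the 0 min cells being the start of the series. There was no untreated 24 h group, so the effect of the drug and that of time in culture cannot be told apart. The labels do not say whether the replicates of a group came from separate cultures, so p-values measure the spread between these samples only. In bulk RNA a change in the number of cells of one kind and a change in RNA per cell cannot be told apart.

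Values are deposited log2 intensities, differences are log2 changes with the standard error (SE) of the fit, and a gene was called at an adjusted p under 0.05 over the 12643 genes tested. The shares of all genes with an unadjusted p under 0.05, or with groups that did not overlap, were not counted. Where these are given they describe the genes named and are no result about the set. The 75th percentile of an array lay between 7.65 and 7.81 in the 19 arrays of the first part of the series (BT20 and MDA-MB-453) and between 7.27 and 7.32 in the 6 MCF arrays of the second part, so levels were compared only within the first part. DUSP6 and SPRY4, feedback genes of the MAP kinase pathway used as a check of the drug, changed in BT20 by -5.58 and -5.12 at 6 h and by -5.93 and -4.76 at 24 h, to means below 4. At 24 h DUSP6 changed by -0.19 in MDA-MB-453 and by -1.56 in MCF, neither being called. In MCF it had 6.32, 6.53 and 5.90 at 24 h, against 7.75, 8.14 and 7.53 at 0 min. SPRY4 in MCF had 2.02, 2.09 and 2.14 at 24 h, against 3.58, 3.65 and 3.93 at 0 min, all below 4. SPRY4 in MDA-MB-453 had 9.10, 9.29 and 8.85 at 24 h, against 9.22, 9.13 and 9.15 at 0 min. A missing call in MCF is thus no sign that its check genes stayed level. A marker was counted as above 4 in a line if it was so on at least 1 of its arrays. By that rule BT20 had 4 of 4 markers of a basal, EGFR-high line, MDA-MB-453 0 of 4 and MCF 2 of 4. On all arrays of the line the counts were 3, 0 and 1 of 4. Markers of an ERBB2-high luminal line were above 4 for 4 of 4 genes in MDA-MB-453 and 3 of 4 each in BT20 and MCF. Estrogen receptor positive luminal markers were above 4 for 4 of 5 in BT20, 4 of 5 in MDA-MB-453 and 5 of 5 in MCF. Counts above 4 in the luminal lists thus do not separate the lines, whereas levels of some single markers do. BT20 arrays had EGFR at 11.7 to 12.6 and KRT5 at 11.3 to 12.7. MDA-MB-453 arrays had them at 3.3 to 3.7 and at 2.2 to 3.1. PIP lay at 10.8 to 11.8 on MDA-MB-453 arrays, against 2.1 to 3.6 on BT20 arrays. KRT19 overlapped between these lines (BT20 11.8 to 13.3, MDA-MB-453 11.2 to 12.6). ESR1, the estrogen receptor, lay between 8.50 and 9.28 in BT20, which is usually described as lacking the receptor, between 2.08 and 2.91 in MDA-MB-453 and between 12.39 and 12.69 in MCF. Of markers of other cells, BT20 had 2 of 4 endothelial genes above 4 on at least 1 array, CDH5 (10.68 to 11.85) and PECAM1 (2.76 to 4.90), and MDA-MB-453 and MCF 0 and 1 of 4. Fibroblast markers above 4 numbered 1, 1 and 2 of 5 in BT20, MDA-MB-453 and MCF, COL1A1 in each of them, and blood cell markers 0, 1 and 0 of 5, PTPRC and CD3D being below 4 on all 25 arrays. PECAM1 had 4.64, 4.59 and 4.60 at 24 h in BT20, against 3.29, 3.08, 3.13 and 4.90 at 0 min, the last being replicate 4, and its part in the results was not tested. BT20 0 min replicate 4 stood apart: it correlated with the 6 h arrays at 0.9896 to 0.9919 over the genes tested and with the other 0 min arrays at 0.9708 to 0.9747, while those 3 correlated among themselves at 0.9954 to 0.9981. Calls and counts that it changes are given with and without it, and 6 h changes of called members also against replicate 4 alone.

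The promoter windows of 4 genes are shown because they cover the kinds of 24 h response met in BT20: HK2 and ANGPTL4 fell, KDM3A rose and LDHA was not called. Each is the 250 bases before the transcript start in the RefSeq promoter table (GRCh38.p14), read 5′ to 3′ on the plus strand, and capitals mark the core of the HIF response element, ACGTG or GCGTG on either strand (CACGT or CACGC where the core lies on the other strand, with both readings of CACGTG counted).
HK2, chr2:74833877-74834126: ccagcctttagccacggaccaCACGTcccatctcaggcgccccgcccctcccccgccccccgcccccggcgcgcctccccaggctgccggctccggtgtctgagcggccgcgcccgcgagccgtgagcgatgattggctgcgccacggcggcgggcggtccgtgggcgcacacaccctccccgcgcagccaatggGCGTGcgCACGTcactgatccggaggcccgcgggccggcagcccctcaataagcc
ANGPTL4, chr19:8363905-8364154: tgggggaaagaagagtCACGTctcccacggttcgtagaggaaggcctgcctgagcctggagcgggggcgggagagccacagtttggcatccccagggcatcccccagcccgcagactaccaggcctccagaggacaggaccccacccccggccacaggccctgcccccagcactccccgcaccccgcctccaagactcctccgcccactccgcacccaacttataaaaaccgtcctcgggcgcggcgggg
KDM3A, chr2:86441121-86441370: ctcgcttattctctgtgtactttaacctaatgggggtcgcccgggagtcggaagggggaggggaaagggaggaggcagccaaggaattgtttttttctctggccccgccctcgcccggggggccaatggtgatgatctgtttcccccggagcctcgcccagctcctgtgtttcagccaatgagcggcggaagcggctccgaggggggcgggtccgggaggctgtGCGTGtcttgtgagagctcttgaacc
LDHA, chr11:18394313-18394562: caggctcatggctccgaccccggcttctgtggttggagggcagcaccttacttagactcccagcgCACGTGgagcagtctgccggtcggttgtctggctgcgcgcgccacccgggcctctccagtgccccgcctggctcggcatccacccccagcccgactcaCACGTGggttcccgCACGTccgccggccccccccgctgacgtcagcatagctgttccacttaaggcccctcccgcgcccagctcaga
The HK2 window held 3 core motifs, LDHA 5, and ANGPTL4 and KDM3A 1 each. Over the 33 members with a window in the table, 22 (66.7%) held at least 1 core motif, against 5906 of 10315 tested genes with a window (57.3%) and 15172 of 35116 windows in the whole table (43.2%). Among members that fell in BT20 at 24 h the share was 5 of 8 (62.5%), among those that rose 2 of 3 (66.7%), and among those not called 14 of 19 (73.7%). By role the motif was in 7 of 8 windows of other HIF targets (87.5%) and 10 of 17 windows of glycolytic enzymes (58.8%). A match describes letters in this window and is not a measured binding site.

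At 30 min none of the 36 tested genes was called in BT20, with changes between -0.69 and 0.34. Over all genes 2 were called by limma, both lower (0.0158%). At an unadjusted p under 0.05 there were 2 members, SLC2A3 (-0.69, SE 0.29) and PFKFB2 (-0.49, SE 0.17), both with an adjusted p of 1.00. Without 0 min replicate 4 the members' changes ran from -0.28 to 0.42 and none was called, where 1 gene of all was (0.00791%).

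**Figure D1:**
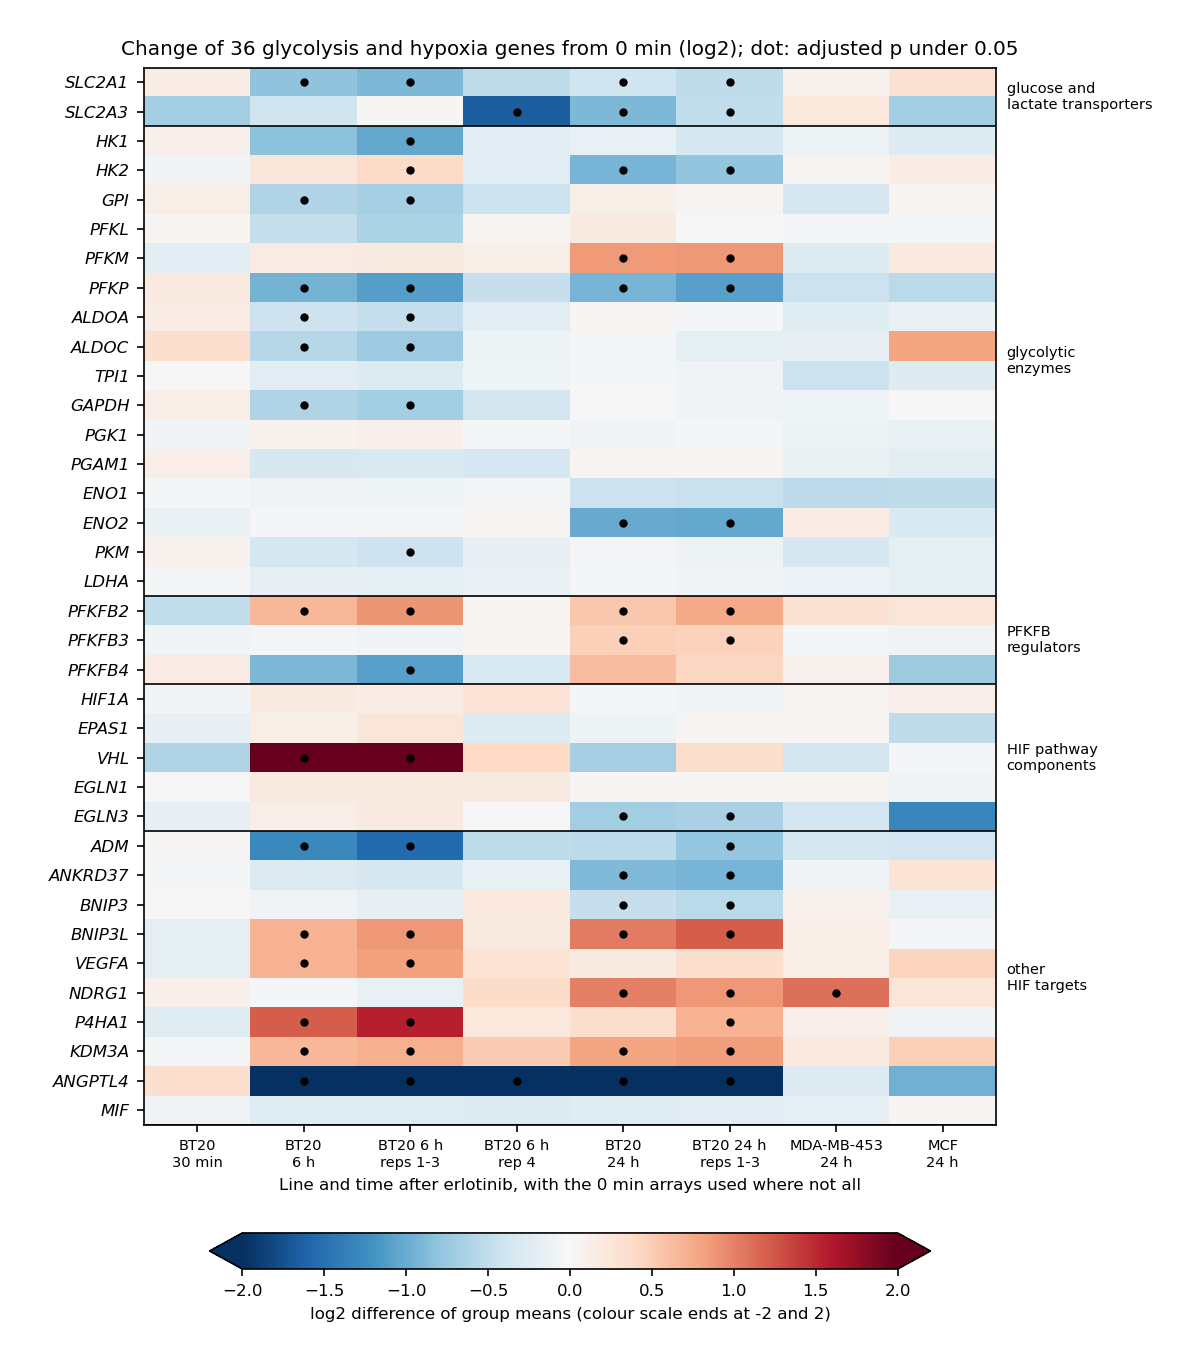
Log2 changes of the 36 tested genes (rows, by role) in 8 comparisons (columns): BT20 at 30 min, 6 h and 24 h against all 4 0 min arrays, the 6 h change against 0 min replicates 1 to 3 and against replicate 4, the 24 h change against replicates 1 to 3, and the 24 h changes of MDA-MB-453 and MCF. The colour scale ends at -2 and 2, dots mark an adjusted p under 0.05, and the dots lie in the BT20 6 h and 24 h columns except NDRG1 in MDA-MB-453.

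At 6 h 14 of the 36 genes were called in BT20, 6 higher (16.7%) and 8 lower (22.2%), where 38.2% of all genes were called, 21.6% higher and 16.6% lower. The lower genes were the glucose transporter SLC2A1, 5 glycolytic enzymes, ADM and ANGPTL4. The higher ones were PFKFB2, VHL, BNIP3L, VEGFA, P4HA1 and KDM3A. These calls rest on the 0 min group. Without replicate 4 there were 18 calls, 7 higher and 11 lower (47.8% of all genes called, 25.7% higher and 22.1% lower), and against replicate 4 alone 2, ANGPTL4 and SLC2A3, both lower (2.31% of all genes called, 1.10% higher and 1.21% lower). All 14 kept their sign against replicate 4 alone. Replicate 4 is part of the 0 min mean that gave these calls, and the 6 h arrays are the same, so this is no separate check. How many called genes of all kept their sign was not counted.

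Among the transporters at 6 h, SLC2A1 (GLUT1, the main basal glucose transporter) had 9.28, 9.23 and 9.07 at 6 h, against 10.09, 9.93, 10.27 and 9.71 at 0 min, the last value being replicate 4. The 6 h arrays lay below every 0 min array, and SLC2A1 fell by 0.80 (SE 0.13, adjusted p = 0.000121). Against replicate 4 alone the change was -0.51 (adjusted p = 0.167). SLC2A3 (GLUT3, a high-affinity glucose transporter) had 4.84, 4.74 and 4.57 at 6 h, against 4.71, 4.98, 4.39 and 6.36 at 0 min. Only replicate 4 was high: the change was -0.40 (adjusted p = 0.295) against all 4 arrays, 0.02 (adjusted p = 0.933) without replicate 4 and -1.65 (SE 0.23, adjusted p = 0.000166) against it alone.

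Of the 16 tested glycolytic enzymes, 5 fell at 6 h and none rose, 13 had a negative change, and the median was -0.33 (all genes, -0.01). PFKP, the platelet-type phosphofructokinase of the committed step, had 10.88, 11.03 and 11.11 at 6 h, against 12.22, 12.25, 11.87 and 11.47 at 0 min (-0.95, SE 0.30, adjusted p = 0.0192). GPI, which turns glucose 6-phosphate into fructose 6-phosphate, had 11.66, 11.49 and 11.50 at 6 h, against 12.33, 12.36, 11.97 and 11.98 at 0 min (-0.61, SE 0.23, adjusted p = 0.0391). GAPDH, the enzyme that oxidises glyceraldehyde 3-phosphate, had 12.67, 12.53 and 12.44 at 6 h, against 13.34, 13.43, 12.93 and 12.92 at 0 min (-0.61, SE 0.16, adjusted p = 0.00682). In these 3 genes the groups did not overlap, and replicate 4 was the lowest or within 0.01 of the lowest 0 min array. ALDOC, a brain-type aldolase, had 4.87, 4.88 and 4.93 at 6 h, against 5.47, 5.98, 5.40 and 4.99 at 0 min (-0.57, SE 0.19, adjusted p = 0.0234). ALDOA, the muscle-type aldolase that splits fructose 1,6-bisphosphate, had 12.40, 12.53 and 12.06 at 6 h, against 12.88, 12.84, 12.71 and 12.54 at 0 min (-0.41, SE 0.13, adjusted p = 0.0187). Neither aldolase overlapped, though the highest 6 h value came close to replicate 4 in both. Against replicate 4 alone these 5 changes were -0.46 for PFKP, -0.43 for GPI, -0.37 for GAPDH, -0.10 for ALDOC and -0.21 for ALDOA, and none was called (adjusted p of 0.712 to 0.997).

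Leaving out single arrays also moved calls among the enzymes at 6 h. GPI lost its call without 0 min replicate 1 or 2 or any one 6 h array (changes of -0.66 to -0.54, adjusted p of 0.0633 to 0.106), and so did ALDOC (-0.58 to -0.39, adjusted p of 0.0504 to 0.101). PFKP lost it without 0 min replicate 1 or 2 or 6 h replicate 1 (-0.88 to -0.85, adjusted p of 0.0589 to 0.0670). ALDOA lost it without 0 min replicate 1 or 2 or 6 h replicate 3 (-0.38 to -0.28, adjusted p of 0.0548 to 0.146). GAPDH kept it in each case. These fits share their spread with the other lines. At 0 min the standard deviation was 0.68 in MCF and 0.36 in BT20 for PFKP, and 0.50 and 0.22 for GPI. It was 0.31 and 0.41 for ALDOC, and 0.07 and 0.15 for ALDOA. The part of the shared spread in the lost calls was not tested.

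Leaving out replicate 4 added 3 enzymes. HK1, the housekeeping hexokinase, had 9.51, 9.57 and 9.71 at 6 h, against 10.67, 10.55, 10.66 and 9.80 at 0 min. Its change was -0.83 (adjusted p = 0.0519) against all 4 arrays and -1.03 (SE 0.33, adjusted p = 0.0150) without replicate 4, the lone low array of its group, and -0.21 against replicate 4 alone. PKM, the pyruvate kinase that makes pyruvate, had 12.61, 12.66 and 12.57 at 6 h, against 13.01, 13.04, 13.01 and 12.78 at 0 min. Its change was -0.35 (adjusted p = 0.0628) against all 4 arrays and -0.41 (SE 0.15, adjusted p = 0.0309) without replicate 4, and -0.17 against replicate 4 alone. HK2, the inducible hexokinase, had 11.52, 11.50 and 11.59 at 6 h, against 11.07, 11.18, 11.21 and 11.76 at 0 min. Without replicate 4 its change was 0.38 (SE 0.11, adjusted p = 0.00646), but -0.22 (adjusted p = 0.757) against replicate 4 alone. The direction for HK2 at 6 h thus turned with the 0 min arrays used, and it also turned with the probe set: the other 2 gave -1.82 and -1.62 against all 4 arrays, where the one used gave 0.23.

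The PFKFB enzymes make or break down fructose 2,6-bisphosphate, the activator of phosphofructokinase. PFKFB2, the heart-type form, had 9.35, 9.31 and 9.48 at 6 h, against 8.65, 8.44, 8.42 and 9.34 at 0 min, and rose by 0.67 (SE 0.17, adjusted p = 0.00395). Replicate 4 lay within the 6 h range, and the change against it alone was 0.04. PFKFB4, first known from testis, had 4.64, 4.48 and 4.36 at 6 h, against 5.47, 5.83, 5.44 and 4.80 at 0 min. It was called without replicate 4 only (-1.09, SE 0.42, adjusted p = 0.0410), the change against all 4 arrays being -0.89 (adjusted p = 0.0869) and that against replicate 4 alone -0.31.

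In the HIF pathway VHL, the E3 ligase component that recognises hydroxylated HIF, was called at 6 h (3.46, SE 0.67, adjusted p = 0.000629). Its probe set had 8.57, 8.99 and 8.59 at 6 h, against 4.39, 4.04, 4.28 and 8.33 at 0 min. Replicate 4 alone of the 0 min arrays stood at the 6 h level, and the change against it was 0.39 (adjusted p = 0.941). The other VHL probe set averaged 2.87 over the 25 arrays and changed by 0.05. HIF1A, EPAS1, EGLN1 and EGLN3 were not called at 6 h (0.11 to 0.18).

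Of 10 tested other HIF targets, 4 rose and 2 fell at 6 h, with a median of -0.05. P4HA1, a subunit of the collagen prolyl hydroxylase, had 10.67, 10.66 and 10.74 at 6 h, against 9.01, 9.18, 9.22 and 10.48 at 0 min (1.22, SE 0.24, adjusted p = 0.000830). VEGFA, the main angiogenic growth factor, had 11.12, 11.06 and 11.12 at 6 h, against 10.35, 10.03, 10.44 and 10.83 at 0 min (0.69, SE 0.15, adjusted p = 0.00152). BNIP3L (NIX), a mitophagy receptor, had 10.16, 10.27 and 10.24 at 6 h, against 9.36, 9.20, 9.49 and 10.04 at 0 min (0.70, SE 0.17, adjusted p = 0.00290). In these 3 genes replicate 4 was the highest 0 min array and lay near the 6 h arrays, and the changes against it alone were 0.21, 0.28 and 0.19. KDM3A, a histone H3 lysine 9 demethylase, had 9.65, 9.59 and 9.53 at 6 h, against 8.80, 9.01, 8.82 and 9.09 at 0 min (0.66, SE 0.13, adjusted p = 0.000705). The change against replicate 4 alone was 0.50 (adjusted p = 0.269).

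The lower targets at 6 h were ADM and ANGPTL4. ADM, the vasodilator peptide adrenomedullin, had 9.93, 10.16 and 9.81 at 6 h, against 11.71, 11.61, 11.25 and 10.48 at 0 min (-1.29, SE 0.24, adjusted p = 0.000463), and -0.51 (adjusted p = 0.607) against replicate 4 alone. ANGPTL4, a secreted inhibitor of lipoprotein lipase, had 2.37, 2.37 and 2.35 at 6 h, against 5.97, 5.80, 5.83 and 4.44 at 0 min. It fell by 3.15 (SE 0.30, adjusted p = 2.68e-07) and by 2.08 against replicate 4 alone (adjusted p = 0.000555). Its 6 h mean is below 4, so the size of the fall is inexact.

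**Figure D2:**
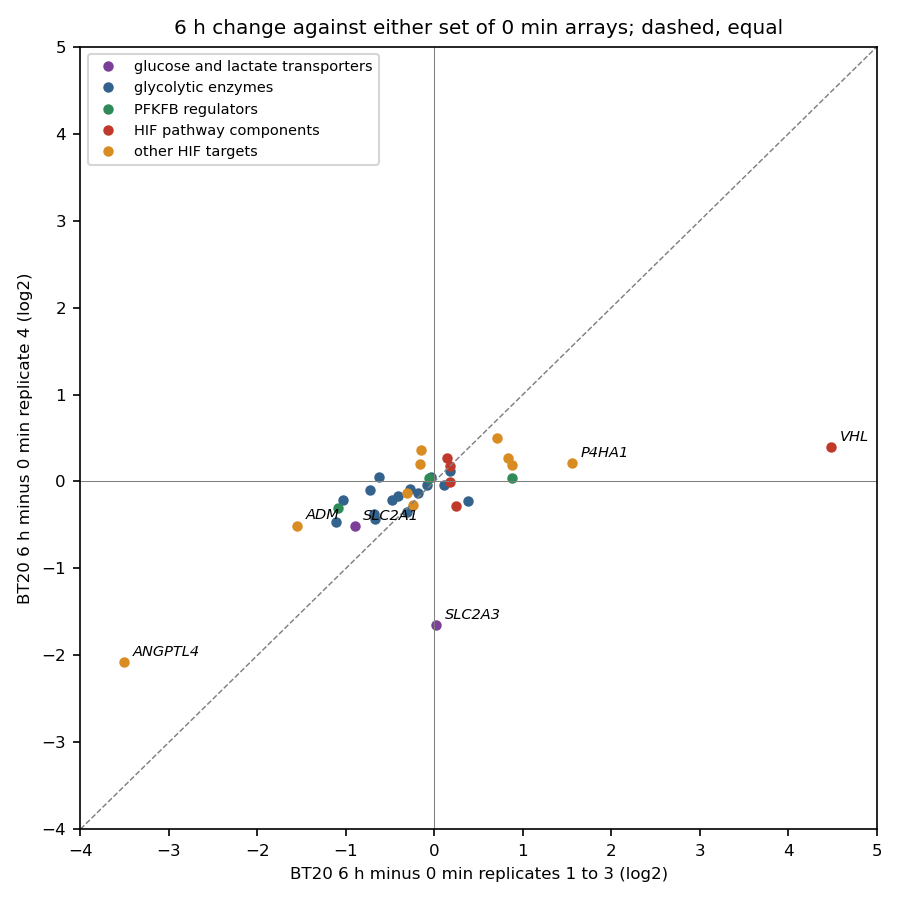
Log2 change at 6 h in BT20 for the 36 tested genes against 0 min replicates 1 to 3 (x axis) and against 0 min replicate 4 (y axis). VHL lies at 4.48 on the x axis and 0.39 on the y axis, while ANGPTL4 is low on both (-3.50 and -2.08) and SLC2A3 on the y axis only (-1.65).

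At 24 h 15 of the 36 genes were called in BT20, 6 higher (16.7%) and 9 lower (25%), where 32.8% of all genes were called, 18.9% higher and 13.9% lower. SLC2A1, SLC2A3, HK2, PFKP, ENO2, EGLN3, ANKRD37, BNIP3 and ANGPTL4 fell. PFKM, PFKFB2, PFKFB3, BNIP3L, NDRG1 and KDM3A rose. Without 0 min replicate 4 the same 15 were called, with ADM and P4HA1 added (36.7% of all genes called, 21.3% higher and 15.4% lower). The 21 genes not called changed by -0.67 to 0.61.

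Both tested transporters fell at 24 h. SLC2A1 had 9.50, 9.48 and 9.79 at 24 h, against 10.09, 9.93, 10.27 and 9.71 at 0 min. It fell by 0.41 (SE 0.13, adjusted p = 0.0177), although 24 h replicate 3 lay above 0 min replicate 4. SLC2A3 had 4.48, 3.91 and 4.23 at 24 h, against 4.71, 4.98, 4.39 and 6.36 at 0 min, and the groups overlapped. Its fall was -0.91 (SE 0.29, adjusted p = 0.0188) against all 4 arrays and -0.49 (SE 0.16, adjusted p = 0.0207) without replicate 4, its highest array. The SLC2A1 call was lost without 0 min replicate 3, 24 h replicate 1 or 24 h replicate 2 (-0.36 to -0.32, adjusted p of 0.0686 to 0.0860), and that of SLC2A3 without 24 h replicate 2 (-0.76, adjusted p = 0.0995).

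Among the 16 enzymes 3 fell, 1 rose and 12 were not called at 24 h, with a median of -0.04 (all genes, 0.03). HK2 had 10.10, 10.44 and 10.58 at 24 h, against 11.07, 11.18, 11.21 and 11.76 at 0 min, and fell by 0.94 (SE 0.14, adjusted p = 1.61e-05), 1.91-fold lower. The groups did not overlap, and its other probe sets were also lower at 24 h (-0.90 and -0.59). ENO2, the neuron-type enolase, had 7.25, 7.41 and 7.65 at 24 h, against 8.51, 8.41, 8.47 and 8.37 at 0 min, and fell by 1.00 (SE 0.13, adjusted p = 5.01e-06), 2.01-fold lower. Here replicate 4 lay with the other 0 min arrays. PFKP had 11.02, 11.03 and 11.01 at 24 h, against 12.22, 12.25, 11.87 and 11.47 at 0 min (-0.93, SE 0.30, adjusted p = 0.0227), with no overlap. PFKM, the muscle-type phosphofructokinase, went the other way: it had 7.02, 7.12 and 7.13 at 24 h, against 6.26, 6.26, 6.15 and 6.28 at 0 min, and rose by 0.85 (SE 0.13, adjusted p = 2.35e-05), 1.81-fold higher. The call of PFKP was lost without 0 min replicate 1 or 2 or any one 24 h array (-0.94 to -0.83, adjusted p of 0.0575 to 0.0635).

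The 12 enzymes not called at 24 h changed by -0.43 (ENO1) to 0.18 (PFKL). They include the enzymes that fell at 6 h other than PFKP: GAPDH had 13.13, 13.18 and 13.16 at 24 h, against 13.34, 13.43, 12.93 and 12.92 at 0 min (0.00, SE 0.16), GPI changed by 0.12, ALDOA by 0.05 and ALDOC by -0.04. LDHA, the lactate dehydrogenase subunit whose window holds 5 core motifs, had 13.03, 12.99 and 12.96 at 24 h, against 13.12, 13.07, 12.97 and 13.00 at 0 min (-0.04, SE 0.09, adjusted p = 0.762). PGK1, the first ATP-making enzyme of the pathway, changed by -0.07 (SE 0.09).

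Of the PFKFB regulators 2 rose at 24 h. PFKFB3, the inducible form with high kinase activity, had 12.82, 12.93 and 12.82 at 24 h, against 12.46, 12.36, 12.38 and 12.31 at 0 min, and rose by 0.48 (SE 0.09, adjusted p = 0.000286) with no overlap. PFKFB2 had 9.16, 9.37 and 9.23 at 24 h, against 8.65, 8.44, 8.42 and 9.34 at 0 min, overlapping replicate 4 (0.54, SE 0.17, adjusted p = 0.0156). Its call was lost without 0 min replicate 2 or 3 or 24 h replicate 2 (0.45 to 0.49, adjusted p of 0.0563 to 0.0720), and a second PFKFB2 probe set gave -0.28. PFKFB4 changed by 0.61 (SE 0.40, adjusted p = 0.278).

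In the HIF pathway EGLN3, a HIF prolyl hydroxylase that is itself a HIF target, had 5.73, 5.87 and 6.01 at 24 h, against 6.64, 6.29, 6.63 and 6.71 at 0 min. It fell by 0.70 (SE 0.14, adjusted p = 0.000606) with no overlap, while its second probe set changed by -0.09. HIF1A (-0.02), EPAS1 (-0.10), EGLN1 (0.03) and VHL (-0.67, SE 0.67) were not called. VHL had 4.64, 4.79 and 4.34 at 24 h, close to 0 min replicates 1 to 3 and far from replicate 4.

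The other HIF targets split at 24 h, with 3 higher, 3 lower and 4 not called, and a median of -0.03. BNIP3L had 10.53, 10.56 and 10.58 at 24 h, against 9.36, 9.20, 9.49 and 10.04 at 0 min (1.04, SE 0.17, adjusted p = 5.23e-05, 2.05-fold higher). NDRG1, a stress-responsive growth regulator, had 6.55, 6.60 and 6.99 at 24 h, against 5.94, 5.86, 5.71 and 5.32 at 0 min (1.00, SE 0.14, adjusted p = 6.89e-06, 2.00-fold higher). KDM3A had 9.68, 9.74 and 9.73 at 24 h, against 8.80, 9.01, 8.82 and 9.09 at 0 min (0.79, SE 0.13, adjusted p = 6.61e-05). In each of these 3 genes every 24 h array was above every 0 min array.

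Of the lower targets, BNIP3, the paralogue of BNIP3L and also a mitophagy receptor, had 10.46, 10.21 and 10.46 at 24 h, against 10.83, 10.84, 11.09 and 10.56 at 0 min (-0.45, SE 0.17, adjusted p = 0.0408). Its call was lost without any one array of either group other than 0 min replicate 4 (-0.50 to -0.37, adjusted p of 0.0645 to 0.173). ANKRD37, an ankyrin repeat protein of the hypoxia response, had 6.23, 6.27 and 6.53 at 24 h, against 7.34, 7.39, 7.10 and 7.09 at 0 min (-0.89, SE 0.19, adjusted p = 0.00106). ANGPTL4 had 2.16, 2.00 and 2.47 at 24 h, against 5.97, 5.80, 5.83 and 4.44 at 0 min (-3.30, SE 0.30, adjusted p = 2.21e-08), with a 24 h mean below 4. None of these 3 genes overlapped between the groups.

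ADM and P4HA1 were called at 24 h only without replicate 4. ADM had 10.81, 10.68 and 10.75 at 24 h, against 11.71, 11.61, 11.25 and 10.48 at 0 min, a change of -0.78 (SE 0.20, adjusted p = 0.00412) without replicate 4 and -0.52 (adjusted p = 0.110) with it. P4HA1 had 9.87, 9.98 and 9.64 at 24 h, against 9.01, 9.18, 9.22 and 10.48 at 0 min, a change of 0.69 (SE 0.15, adjusted p = 0.00120) without replicate 4 and 0.35 (adjusted p = 0.304) with it. In both genes replicate 4 was the 0 min array on the far side of the 24 h values. VEGFA (0.18) and MIF (-0.24), an inflammatory cytokine, were not called.

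**Figure D3:**
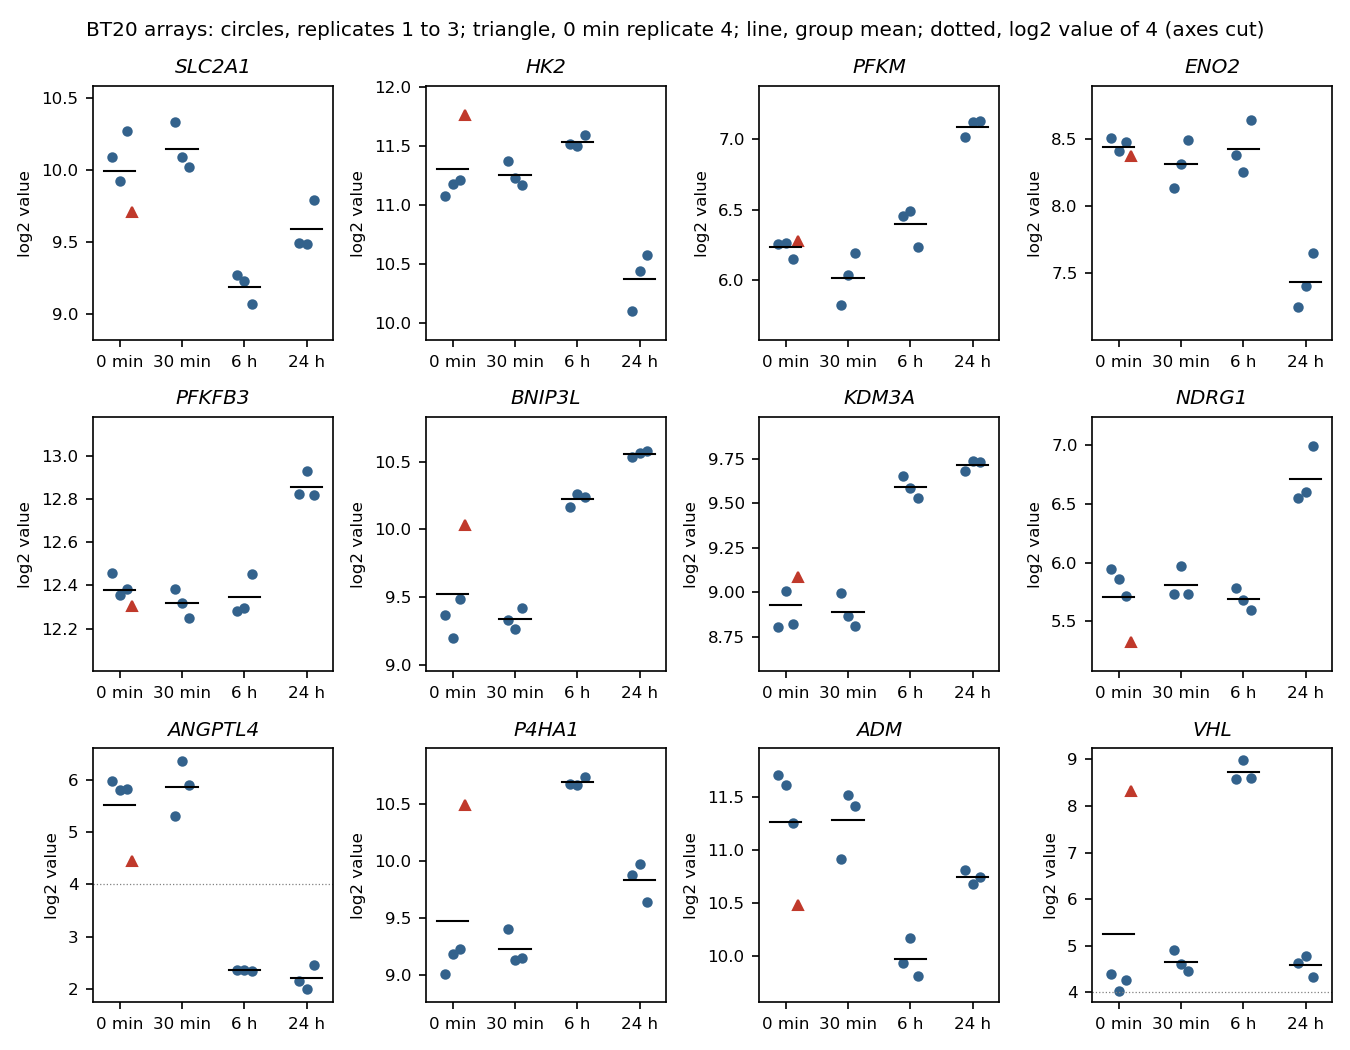
Log2 intensity (y axis of each panel) of 12 genes on the 13 BT20 arrays at 0 min, 30 min, 6 h and 24 h. Circles are replicates 1 to 3 and the triangle is 0 min replicate 4, which sits near the 6 h arrays for VHL (8.33) and P4HA1 (10.48).

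The enzymes and the other HIF targets are set side by side here. At 24 h the enzymes had 1 gene higher (6.25%) and 3 lower (18.8%) with a median of -0.04, and the targets 3 higher (30%) and 3 lower (30%) with a median of -0.03. At 6 h the enzymes had 0 higher and 5 lower (31.2%) with a median of -0.33, and the targets 4 higher (40%) and 2 lower (20%) with a median of -0.05. Without replicate 4 the 6 h medians were -0.36 for the enzymes (1 higher, 7 lower) and -0.16 for the targets (4 higher, 2 lower). Against replicate 4 alone they were -0.15 (0 higher, 0 lower) and 0.19 (0 higher, 1 lower). Over all genes 18.9% were higher and 13.9% lower at 24 h, and 21.6% higher and 16.6% lower at 6 h. The 6 h and 24 h comparisons share the 0 min arrays, and no test was made between the lists.

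**Figure D4:**
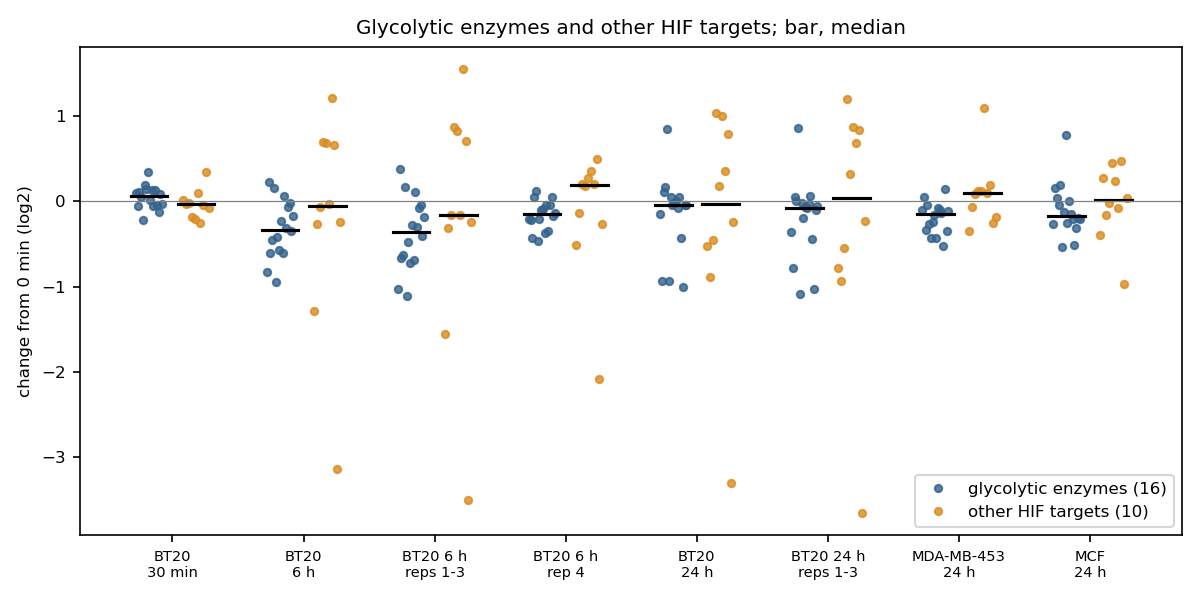
Log2 change (y axis) of the 16 tested glycolytic enzymes and the 10 tested other HIF targets in the same 8 comparisons, each point 1 gene and each bar the median of its group. At 6 h the enzyme median is -0.33 against all 4 0 min arrays and -0.15 against replicate 4 alone, and at 24 h both medians lie near 0.

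In MDA-MB-453 1 of the 36 genes was called at 24 h, where 5.77% of all genes were (4.22% higher and 1.55% lower). NDRG1 had 5.80, 5.89 and 5.83 at 24 h, against 4.78, 4.63 and 4.81 at 0 min, and rose by 1.10 (SE 0.15, adjusted p = 4.29e-05), 2.14-fold higher with no overlap. The other 35 changed by -0.52 to 0.29. Of the 16 enzymes 14 had a negative change, with a median of -0.15 (all genes, 0.02) and none called. TPI1, triose phosphate isomerase, came nearest: it had 11.22, 11.12 and 11.24 at 24 h, against 11.69, 11.60 and 11.61 at 0 min (-0.44, SE 0.14, adjusted p = 0.0740). HK2, PFKM and ANGPTL4, which were called in BT20, changed here by 0.06, -0.26 and -0.25, ANGPTL4 being below 4 at both times.

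In the line labelled MCF none of the 36 genes was called by limma on its 6 arrays, where 1 gene of all was called (0.00791%). The share of all genes with an unadjusted p under 0.05 was not counted, and 4 members had one. Of these, 2 did not overlap between the groups and stayed above 4: EGLN3 had 7.54, 7.43 and 7.87 at 24 h, against 9.20, 8.79 and 8.75 at 0 min (-1.30, SE 0.21, adjusted p = 0.198), and ALDOC had 7.71, 7.16 and 7.48 at 24 h, against 6.68, 6.36 and 6.97 at 0 min (0.78, SE 0.23, adjusted p = 0.608). SLC2A3 (-0.67) and ANGPTL4 (-0.97) were the others, with 24 h means below 4. In the fit to all 25 arrays, whose spread is shared with the other lines, EGLN3 (adjusted p = 2.37e-05) and ALDOC (adjusted p = 0.0351) were called, with 3.20% of all genes (1.17% higher and 2.02% lower). The spread was widest in this line, with a median residual SD over the members of 0.26, while BT20 had 0.18 and MDA-MB-453 had 0.13. MCF replicate 2 was the lowest array of its group at both times for HK1, PFKL, PFKP, PFKFB4 and ENO1. It was so for several other members too, among them GPI, TPI1, PKM and ALDOC, but not for others such as HK2. PFKL had 7.32, 5.97 and 8.19 at 24 h, against 8.06, 5.95 and 7.60 at 0 min.

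The 24 h change differed between BT20 and MDA-MB-453 for 7 of the 36 genes (14.8% of all genes called, 7.69% higher and 7.12% lower in BT20). As BT20 minus MDA-MB-453 these were HK2 (-0.99, adjusted p = 0.00134), ENO2 (-1.15, adjusted p = 0.000229), ANGPTL4 (-3.05, adjusted p = 3.25e-05), PFKM (1.12, adjusted p = 0.000219), PFKFB3 (0.50, adjusted p = 0.0125), BNIP3L (0.91, adjusted p = 0.0132) and KDM3A (0.59, adjusted p = 0.0387). BT20 cells changed by -0.94 for HK2, where MDA-MB-453 cells changed by 0.06, and by -1.004 for ENO2, where MDA-MB-453 cells changed by 0.15. ANGPTL4 was above 4 on 8 of the 25 arrays, 7 of them BT20 arrays, and its means in MDA-MB-453 were 1.98 at 24 h and 2.23 at 0 min. Both means lie below 4, so its difference is no evidence of a different response. The part of the low level in that difference was not tested. NDRG1, which rose in both lines, differed by -0.10 (SE 0.20, adjusted p = 0.855). Without BT20 0 min replicate 4 there were 10 such genes (19.7% of all genes, 10.6% higher and 9.04% lower), SLC2A1 (-0.57, adjusted p = 0.0219), SLC2A3 (-0.70, adjusted p = 0.0347, below 4 in MDA-MB-453 at both times) and ANKRD37 (-0.87, adjusted p = 0.0401) being added. KDM3A lost its call in 9 of the 13 fits that left out 1 array (0.49 to 0.62, adjusted p of 0.0584 to 0.124).

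Between BT20 and MCF the 24 h change differed for 10 genes (15.4% of all genes called, 9.87% higher and 5.54% lower in BT20). Lower in BT20 were SLC2A1 (-0.70, adjusted p = 0.0124), HK2 (-1.09, adjusted p = 0.000543), ALDOC (-0.83, adjusted p = 0.0481), ENO2 (-0.70, adjusted p = 0.0178), ANKRD37 (-1.17, adjusted p = 0.00595) and ANGPTL4 (-2.34, adjusted p = 0.000616). Higher were PFKM (0.67, adjusted p = 0.0185), PFKFB3 (0.55, adjusted p = 0.00636), BNIP3L (1.05, adjusted p = 0.00456) and NDRG1 (0.76, adjusted p = 0.0118). Without BT20 0 min replicate 4 PFKFB2 (0.51), EGLN3 (0.65) and P4HA1 (0.77) joined them, making 13 (21.5% of all genes, 13.6% higher and 7.91% lower). ALDOC lost its call in 10 of the 13 fits that left out 1 array (-0.85 to -0.65, adjusted p of 0.0632 to 0.136), and ENO2 without BT20 24 h replicate 1 or MCF 24 h replicate 1 (-0.64 to -0.60, adjusted p of 0.0531 to 0.0610). ANGPTL4 was above 4 on 1 of the 6 MCF arrays, so its difference here is limited in the same way. The comparisons with MDA-MB-453 and with MCF share the BT20 arrays. The fit behind these differences shared its spread between the lines, and the spread was widest in MCF. On the MCF arrays alone no member was called at 24 h, ALDOC included.

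**Figure D5:**
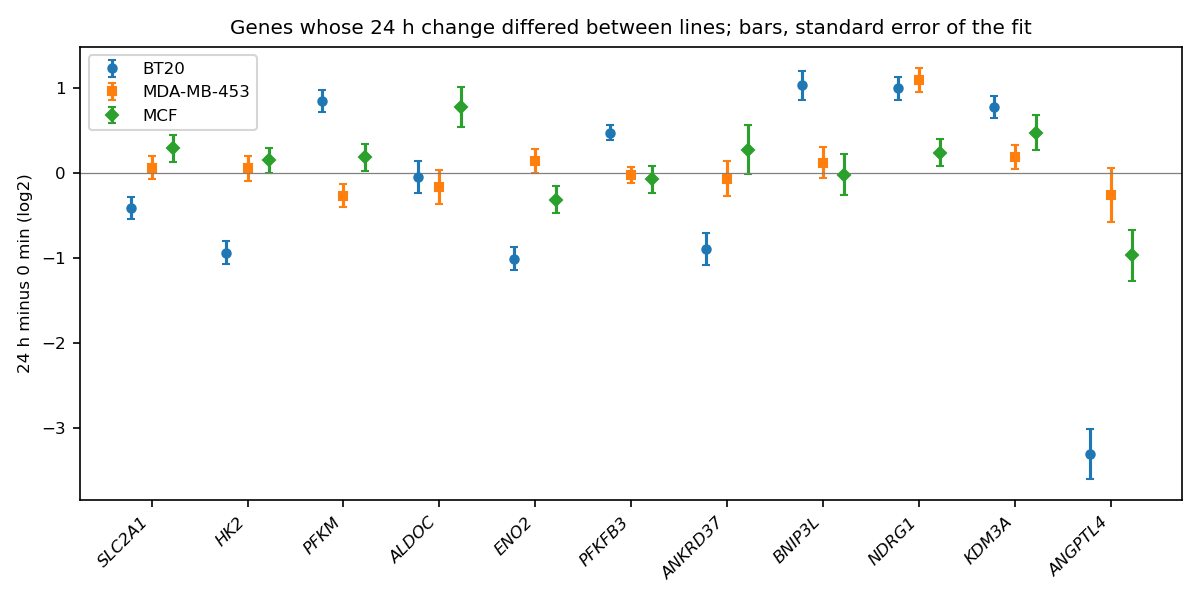
Log2 change at 24 h (y axis) with its SE in BT20, MDA-MB-453 and MCF for the 11 genes (x axis) whose change differed between BT20 and at least 1 of the other lines. ANGPTL4 lies at -3.30 for BT20, at -0.25 for MDA-MB-453, where it is below 4 at both times, and at -0.97 for MCF, while HK2 lies at -0.94 for BT20, at 0.06 for MDA-MB-453 and at 0.15 for MCF.

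Before treatment the set differed widely between BT20 and MDA-MB-453, with 26 of 36 genes called, 12 higher and 14 lower in BT20, where 66.7% of all genes were called, 32.6% higher and 34.1% lower. ADM stood highest above MDA-MB-453: it had 11.71, 11.61, 11.25 and 10.48 in BT20, against 3.26, 3.32 and 3.55 in MDA-MB-453 (7.88, SE 0.24), the MDA-MB-453 mean being below 4. EGLN3 stood lowest: it had 6.64, 6.29, 6.63 and 6.71 in BT20, against 12.60, 12.53 and 12.41 in MDA-MB-453 (-5.94, SE 0.14, 61.6-fold lower). The phosphofructokinases went opposite ways, PFKM being lower in BT20 (6.26, 6.26, 6.15 and 6.28 in BT20, against 10.15, 10.35 and 10.63 in MDA-MB-453; -4.14, SE 0.13) and PFKP higher (1.496, SE 0.30). Transporters SLC2A1 (1.45) and SLC2A3 (2.13) were higher in BT20, as were PKM (1.29), ALDOC (1.98), TPI1 (0.87) and GAPDH (0.60), the MDA-MB-453 means of SLC2A3 (2.98) and ALDOC (3.48) being below 4, while HK2 (-1.21), ENO2 (-1.94), HK1 (-0.91) and PGK1 (-0.49) were lower. Of the targets NDRG1 (0.97) and ANGPTL4 (3.28) were higher with ADM, ANGPTL4 against a MDA-MB-453 mean of 2.23, and P4HA1 (-2.07), BNIP3L (-1.46), BNIP3 (-1.30), ANKRD37 (-1.15), VEGFA (-0.92) and KDM3A (-0.62) lower. HIF1A (0.38) and EPAS1 (0.62) were higher, and EGLN1 (-0.48) and PFKFB2 (-0.72) lower. A difference from a mean below 4 is inexact in size. Without replicate 4 HK1 was not called (-0.70, adjusted p = 0.0669) and VHL was (-2.42), the count staying at 26 (68.8% of all genes, 33.8% higher and 35.0% lower).

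Other genes of the same pathways, from 4 further lists, were read in the same fits. Their shares are to be read against all genes, of which 18.9% were higher and 13.9% lower in BT20 at 24 h and 21.6% higher and 16.6% lower at 6 h. At 24 h in BT20 the further glycolysis and pyruvate genes had 4 of 20 higher (20.0%, near the share of all genes) and 1 lower (5.00%), with a median of 0.29 (all genes, 0.03). BPGM, which makes 2,3-bisphosphoglycerate, had 12.16, 11.99 and 12.20 at 24 h, against 10.08, 9.95, 10.13 and 10.01 at 0 min, and rose by 2.07 (SE 0.25, adjusted p = 1.46e-06). The glucose transporters SLC2A10 (1.36) and SLC2A12 (0.97) and the liver-type pyruvate kinase PKLR (1.01) also rose. The pentose phosphate and glycogen genes had 4 of 14 higher (28.6%) and none lower, with a median of 0.11: PGM1 (0.79) and PYGL (0.82) of glycogen use, and PGD (1.04) and TKT (0.48) of the pentose phosphate pathway. Without 0 min replicate 4 these counts were 4 higher and 1 lower, and 5 higher and 1 lower.

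The further HIF pathway components had 0 of 13 higher and 1 lower (7.69%) at 24 h (1 higher and 1 lower without replicate 4). ARNT2, a partner of HIF alpha subunits known best from neurons, had 2.66, 3.24 and 3.05 at 24 h, against 9.13, 9.29, 8.88 and 8.19 at 0 min. It fell by 5.89 (SE 0.22, adjusted p = 2.11e-14), with a 24 h mean below 4, after 6.48, 6.36 and 6.60 at 6 h (-2.39 against all 4 arrays, -1.71 against replicate 4 alone, adjusted p = 0.000434). In MDA-MB-453 it stayed below 4 at both times and in MCF it was between 5.45 and 6.05.

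Further hypoxia-induced genes had 10 of 29 higher (34.5%) and 4 lower (13.8%) at 24 h, with a median of 0.32, and 11 higher and 4 lower with a median of 0.12 without replicate 4. DDIT4 (REDD1), an mTORC1 inhibitor, had 12.31, 12.34 and 12.33 at 24 h, against 7.97, 7.87, 7.91 and 8.86 at 0 min, and rose by 4.17 (SE 0.21, adjusted p = 3.51e-12). At 6 h it had 11.83, 11.98 and 11.95, a rise of 3.77 that was 3.06 against replicate 4 alone (adjusted p = 1.21e-07). CXCR4, a chemokine receptor, had 7.89, 7.59 and 7.19 at 24 h, against 5.33, 4.96, 4.98 and 5.66 at 0 min (2.32, SE 0.18). BHLHE41, a circadian repressor, rose by 1.11, and TMEM45A, a transmembrane protein, fell by 0.65.

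At 6 h these lists had 3 of 20 higher and 1 lower, 2 of 14 higher and 2 lower, 6 of 13 higher and 2 lower, and 6 of 29 higher and 6 lower, in the order given. Without replicate 4 they had 3 higher and 3 lower, 3 and 3, 7 and 2, and 10 and 8. Against replicate 4 alone they had 0 and 0, 0 and 0, 0 and 1, and 1 and 0. Glycogen synthase GYS1 (-1.48) and glycogen phosphorylase PYGB (-1.17) fell and the phosphoglucomutase PGM2 rose (1.19). CITED2, which competes with HIF for its coactivators, rose by 1.38, and WSB1, a ubiquitin ligase component, by 1.07. Of these 5 genes none was called against replicate 4 alone, the changes there being -0.31, -0.39, 0.17, 0.47 and 0.67. In MDA-MB-453 at 24 h STC2, a secreted glycoprotein, had 9.79, 9.32 and 9.84, against 7.61, 7.11 and 6.47 at 0 min, and rose by 2.59 (SE 0.27, adjusted p = 1.93e-06), while its relative STC1 (-0.74) and the transketolase TKT (-0.71) fell. In MCF none of these genes was called by limma on its own 6 arrays. An unadjusted p under 0.05 was met by 7 of the 76 tested, a count without its share over all genes. The fit to all 25 arrays called 3 of them lower, PGM1 (-1.15), LOXL2 (-1.56) and TMEM45A (-1.29), which are named here because they were the calls of that fit, after their values were seen.

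Several probe sets of mean above 4 were present for 15 of the 37 genes, and all those of a gene had the same sign for 9 genes at 6 h and for 9 at 24 h. Beyond the cases given, another PGK1 probe set changed by 1.30 at 6 h where the one used changed by 0.07, and another TPI1 probe set by 0.68 at 24 h where the one used changed by -0.02. For ANGPTL4 another probe set changed by -1.03 at 6 h and -1.09 at 24 h, and for SLC2A1 by -1.77 and -1.08. A further BNIP3L probe set changed by 0.44 at 24 h.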

How the data were processed

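Total RNA was read on Affymetrix arrays, 1 per sample. The deposited values are log2 intensities per probe set, made with GCRMA 2.20.0 in R 2.11.1, per the submitters' processing notes. Whether the 2 parts of the series were normalized together is not given in the sources used here. Of 54613 probe sets, 41091 carried 1 gene symbol, and the one with the highest mean over the 25 arrays stood for its gene. The 12643 genes above log2 4 on at least 3 arrays were tested with limma 3.58.1 (lmFit, eBayes) in R 4.3.3, in 1 fit to all 25 arrays with a mean per group (17 residual degrees of freedom). The MCF comparison used its own 6 arrays (4 residual degrees of freedom). P-values were Benjamini-Hochberg adjusted over all genes tested, and 0.05 was the threshold. The statistics were tested on simulated data. The 40 genes and the further lists were chosen with earlier results of these data known. Array values are given for up to 6 called members per role and comparison with the smallest p, and for members whose call changes without BT20 0 min replicate 4, and up to 4 called genes are named per further list and comparison. Levels are intensities, so array number limits their precision. Deviations of arrays with the same replicate number correlated at -0.64 to 0.80, so the numbers were not taken as pairs. The highest value was that of MCF replicate 2, while MCF replicates 1 and 3 had -0.49 and 0.04. A replicate block was fitted as an alternative, and in MCF it called 0 members and 0 of all genes. Alternatives changed the filter, the probe set summary, the normalization, the variance model, array weights, the arrays fitted and single arrays. Promoter sequences are from RefSeq (GRCh38.p14).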

Additional observations from a re-analysis of the deposited data

Results flagged for a closer look

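Among the 4 BT20 0 min arrays, 8 of the 36 genes had 1 array far from the other 3, by Dixon's 95% critical value, and 7 of these 8 arrays were replicate 4. Chance alone gives about 1 in 20 groups, but the share over all genes tested was not counted. Replicate 4 also stood apart over the genes tested as a whole, so this count is no result about the set. In replicate 4, HK1 was low at 9.80, TPI1 at 12.355, PKM at 12.78 and ANGPTL4 at 4.44, while EPAS1 was high at 12.001, VHL at 8.325 and P4HA1 at 10.48. PFKM was low in replicate 3, at 6.15. The cause was not tested.

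The 24 h change differed between BT20 and MDA-MB-453 by limma's interaction test for 7 genes. As BT20 minus MDA-MB-453 the differences were -0.99 for HK2, 1.12 for PFKM, -1.15 for ENO2, 0.50 for PFKFB3, 0.91 for BNIP3L, 0.59 for KDM3A and -3.05 for ANGPTL4. As BT20 minus MCF there were 10: -0.70 for SLC2A1, -1.09 for HK2, 0.67 for PFKM, -0.83 for ALDOC, -0.70 for ENO2, 0.55 for PFKFB3, -1.17 for ANKRD37, 1.05 for BNIP3L, 0.76 for NDRG1 and -2.34 for ANGPTL4. ANGPTL4 was below 4 at both times in MDA-MB-453 (means of 1.98 at 24 h and 2.23 at 0 min). It was above 4 on 1 of 6 MCF arrays, with means of 2.91 at 24 h and 3.88 at 0 min. At such levels its differences are no evidence of a different response, and the part of the low level in them was not tested. The MCF arrays form a part of the series of their own, so that part and that line cannot be told apart. The interaction fit shared its spread between the lines, and the spread was widest in MCF.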

How the results depend on the processing

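The count of members called moved most with the 0 min group: at 6 h it was 2 against replicate 4 alone, where it was 14 against all 4 arrays. Of those 14 calls only ANGPTL4 held in every alternative run that tested it. At 24 h 10 of 15 calls held in this sense, 6 of 7 for BT20 minus MDA-MB-453 and 4 of 10 for BT20 minus MCF. The share of all called genes that held was not counted, so these counts are no result about the set. ANGPTL4 is in each of these counts, though the filter of log2 above 6 on at least 3 arrays left it untested. For MDA-MB-453 at 24 h the count was 1, with 730 of all 12643 genes called. It was 2 with probe sets averaged per gene, with a trended and robust fit or with its own arrays alone (876, 693 and 1049 of all genes). It was 5 with array weights and 3 with a replicate block (1605 and 1110 of all genes). For MCF it was 0 (1 of all genes), and 2 in the fit to all 25 arrays (404 of all genes). With the BT20 arrays alone the BT20 counts were 19 at 6 h and 16 at 24 h (6579 and 5358 of all genes). With array weights BT20 minus MCF gave 4 genes, while calls over all genes went from 1949 to 957. With a replicate block BT20 minus MDA-MB-453 gave 11 genes, BT20 minus MCF 13, 6 h 20 and 24 h 18. Calls over all genes rose as well, to 2566, 2861, 6413 and 4956 in that order, from 1872, 1949, 4827 and 4149. Leaving out 1 array at a time gave 10 to 18 calls at 6 h, 10 to 17 at 24 h, 6 to 10 for BT20 minus MDA-MB-453, 8 to 13 for BT20 minus MCF, 26 for the 0 min level, 1 for MDA-MB-453, and 0 for 30 min and MCF. Over all genes these fits gave 3437 to 6046 calls at 6 h and 3338 to 4641 at 24 h. They gave 1557 to 2489 for BT20 minus MDA-MB-453 and 1544 to 2719 for BT20 minus MCF. Of single genes, 2 reversed with the mean of their probe sets: HK2 at 6 h (-1.07) and PFKFB2 at 24 h (-0.10), by construction since their probe sets differ in sign. Other causes were not tested.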
